A study of Mus musculus with 6 samples.

Results

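Type I interferon stimulated genes were followed in splenic B cells with and without CD37, a tetraspanin of the B cell surface. The set held 35 genes, listed by name and matched to the array by probe sets that name a single gene, with the brightest probe set kept per gene. Of the 35, 33 had a probe set of their own among the 19935 genes measured. Ifi44 had none, and the probe set that names Isg15 also names Gm9706. RNA came from B220+ splenic B cells lacking CD43, of 3 wild-type (WT) mice and 3 Cd37-deficient (CD37KO) littermates on a C57BL/6J background, with 1 Affymetrix mouse gene array per mouse. No mouse received a treatment, the labels give an age of 3 months for both groups, and the methods give an older age for spleen studies. The isolations were accepted at a purity that left some other cells, so each array holds the RNA of a bulk sample. The comparison asked how gene expression of primary B cells differs when CD37 is absent.

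Type I interferons (IFN-α and IFN-β) bind a receptor of IFNAR1 and IFNAR2, which signals through the kinases JAK1 and TYK2. STAT2 and IRF9 then act in the ISGF3 complex, which binds interferon-stimulated response elements (ISREs) in promoters and switches on sensors of viral nucleic acid, antiviral effectors and feedback inhibitors. Many of these genes keep a low steady level without infection, and B cells carry the receptor and the endosomal RNA and DNA sensors TLR7 and TLR9.

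The values are log2 signals after RMA, so a difference of 1 is a doubling, and levels are compared for a gene between arrays and not between genes. Cd37 itself was at 11.82 to 12.08 in WT and at 8.15 to 8.17 in CD37KO arrays, a log2 difference of -3.80 (adjusted p = 1.37e-07 from limma). The other 14 measured mature B cell markers lay between 10.7 and 13.2 in all 6 arrays, with a median log2 difference of -0.0084. Over all genes tested, 11 passed an adjusted p under 0.05 (0.0552%), and the median log2 difference was -0.019. Transcripts of the Y chromosome were at 8.29 or above and Xist at 4.70 or below in each array. A log2 level of 5.77, the 95th percentile of 1015 olfactory receptor genes, served as background.

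Interferon-stimulated genes had higher mean levels in CD37KO than in WT B cells in 29 of the 33 measured members, but none passed the adjusted test. The smallest adjusted p was 0.377, for Usp18. At an unadjusted p under 0.05 from limma, 15 of the 33 members were higher in CD37KO (45.5%, against 2.96% of all genes tested) and 0 were lower (against 2.99%). The WT and CD37KO arrays did not overlap in 12 members, all higher in CD37KO (36.4%, against 4.33% of all genes), while 0 were lower without overlap (against 7.57%). Among genes above background in all 6 arrays, which 31 of the 33 members were, these shares were 5.1% for the unadjusted test and 6.98% for higher without overlap. The median log2 difference of the members was 0.16, and the differences ran from -0.065 for Ddx58 to 0.68 for Cxcl10, a 1.60-fold higher level. In bulk samples, more cells that carry a transcript and more of it per cell cannot be told apart. The shares are a description, since the list was drawn up with results of these data in view. The count of 15 was 9 without WT replicate 3. Of the 15, 8 stayed at an unadjusted p under 0.05 when each array in turn was left out (Zbp1, Oas2, Oas3, Oasl2, Ifit1, Rsad2, Cxcl10 and Usp18), and Ifih1, Dhx58, Eif2ak2, Mx1, Mx2, Rtp4 and Oasl1 did not.

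**Figure D1:**
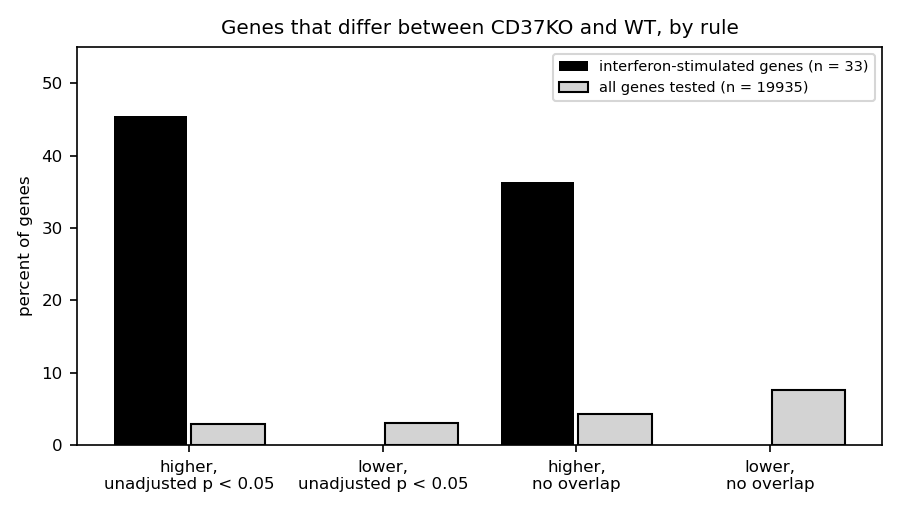
Percent of genes (vertical axis, from 0) that differed between CD37KO and WT under 4 rules, for the 33 interferon-stimulated genes (black bars) and all 19935 genes tested (grey bars). The black bars stand at 45.5% and 36.4% for the rules on higher levels and at 0 for those on lower levels.

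The module as a whole was summarised per array as the mean, over the 33 members, of the log2 level minus that gene's mean over the 6 arrays. This score was -0.0093, -0.22 and -0.097 in WT replicates 1, 2 and 3 and 0.075, 0.085 and 0.17 in CD37KO replicates 1, 2 and 3. All 3 CD37KO arrays thus scored above all 3 WT arrays, with a difference of the group means of 0.22 (WT SD 0.11, CD37KO SD 0.052, n = 3 mice each). Like the shares, this score is a description, since the list was drawn up with results of these data in view. WT replicate 2 was the lowest array in 19 members and the highest in 0. Without it the difference of the module score was 0.16, the lowest value when 1 array was left out, and 0.27 without WT replicate 1 was the highest. CD37KO replicate 3 lay above every WT array in 25 members, CD37KO replicate 1 in 20 and CD37KO replicate 2 in 19. Of all genes tested, 22.2%, 22.8% and 20.9% did so in these arrays.

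**Figure D2:**
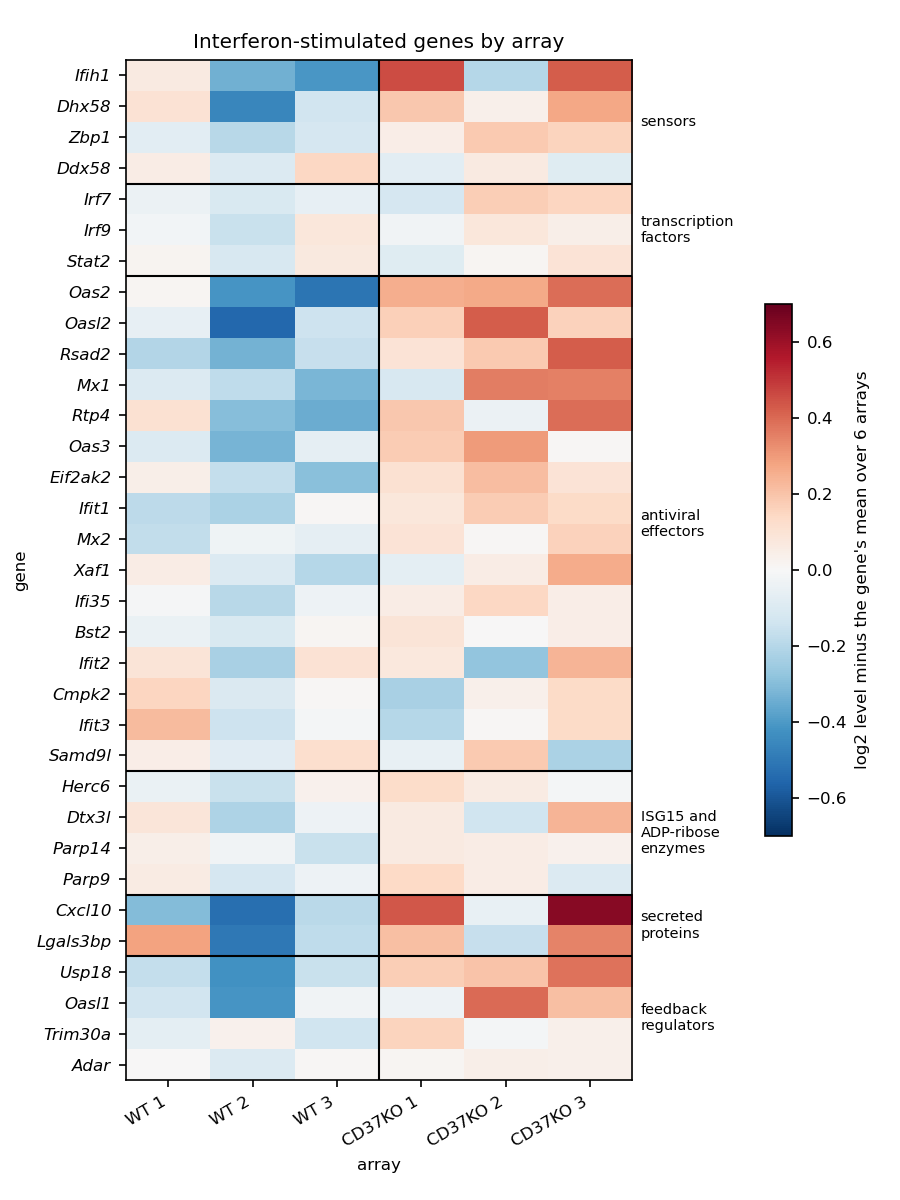
Each member's log2 level minus its own mean over the 6 arrays (colour, red above and blue below the mean), with arrays in columns and genes in rows grouped by role. Blue prevails in WT replicate 2, the lowest array in 19 members, and red in the CD37KO columns for most antiviral effectors. Ifit3, Cmpk2, Samd9l and Ddx58 have lower means in CD37KO. Other members also depart from this order, such as Ifit2 and Irf7, in which a CD37KO array is the lowest.

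Promoter sequences were read to see what the members share beyond their expression. RefSeq windows from 250 bases before to 50 after the gene start (GRCm38.p6) were given for 26 of the 35 members, and Dhx58, Zbp1, Oas2, Mx1, Mx2, Rtp4, Parp9, Parp14 and Usp18 were not among them. The ISRE was searched as GAAANNGAAA on both strands, with overlapping matches counted. It was found in 12 of the 26 members (46.2%), against 3.99% of the 27025 genes with such a window. Of the members with a window, 5 of the 8 whose groups did not overlap (62.5%) and 6 of the 16 measured members whose groups overlapped (37.5%) held it, a difference that was not tested. The GAS element, another motif of interferon-responsive promoters, searched as TTCNNNGAA on both strands, can share bases with an ISRE and was found in 5 of the 26 (19.2%), against 9.55% of all. A match describes letters in the window and is not a measured binding site.

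The stretches below surround the ISRE letters of the 5 members that held a match and did not overlap between genotypes, written 5′ to 3′ on the strand of the gene, with the match in capitals. Where the match reads on the other strand, the capitals show its reverse complement, which begins with TTTC.
Oas3, chr5:120777685-120777774, minus strand: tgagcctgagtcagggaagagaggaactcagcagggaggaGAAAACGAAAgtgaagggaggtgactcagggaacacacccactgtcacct
Eif2ak2, chr17:78882523-78882594, minus strand: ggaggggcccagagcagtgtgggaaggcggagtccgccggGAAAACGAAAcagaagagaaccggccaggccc
Ifit1, chr19:34640745-34640853, plus strand: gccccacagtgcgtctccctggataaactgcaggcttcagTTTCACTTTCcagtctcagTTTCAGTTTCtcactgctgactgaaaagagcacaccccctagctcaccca
Rsad2, chr12:26456523-26456612, minus strand: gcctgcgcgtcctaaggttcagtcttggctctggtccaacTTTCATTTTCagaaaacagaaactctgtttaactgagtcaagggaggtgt
Cxcl10, chr5:92349053-92349139, minus strand: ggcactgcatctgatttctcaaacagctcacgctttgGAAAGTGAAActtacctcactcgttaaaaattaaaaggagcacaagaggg
The match began 75 bases before the gene start in Oas3, 104 in Ifit1 (the first of 2), 120 in Rsad2 and 213 in Cxcl10, and at base 19 of the transcript in Eif2ak2. Of the 6 measured members with a match whose groups overlapped, 3 are shown next. Ifih1, Stat2 and Trim30a, with log2 differences of 0.45, 0.016 and 0.12, are not shown.
Ifit3, chr19:34583333-34583456, plus strand: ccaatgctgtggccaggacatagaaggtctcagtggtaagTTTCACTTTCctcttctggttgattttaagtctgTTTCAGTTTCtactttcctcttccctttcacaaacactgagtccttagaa
Ddx58, chr4:40239776-40239863, minus strand: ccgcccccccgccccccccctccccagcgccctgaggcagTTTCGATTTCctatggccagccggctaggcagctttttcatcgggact
Bst2, chr8:71537547-71537642, minus strand: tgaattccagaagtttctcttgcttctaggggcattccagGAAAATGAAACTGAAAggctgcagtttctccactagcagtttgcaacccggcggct
Ifit1 and Ifit3 each held 2 matches on the same strand, and the pair in Bst2 shared the 4 bases in its middle.

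Among the 4 sensors, Zbp1, Ifih1 and Dhx58 were higher in CD37KO at an unadjusted p under 0.05 (against 2.96% of all genes) and Ddx58 was not. Ifih1 and Dhx58 each lost this in 4 of the fits that left out 1 array. Arrays are given in the order of replicates 1, 2 and 3. Zbp1, a sensor of Z-form nucleic acid that can trigger necroptosis, was at 8.20, 8.09 and 8.16 in WT and at 8.33, 8.47 and 8.44 in CD37KO arrays. Its groups did not overlap, and the log2 difference of 0.26 (standard error 0.067) had an adjusted p of 0.801 from limma. Ifih1 (MDA5), a cytosolic sensor of long double-stranded RNA, was at 6.96, 6.56 and 6.49 in WT and at 7.35, 6.70 and 7.32 in CD37KO arrays. CD37KO replicate 2 lay below WT replicate 1, so the groups overlapped, with a log2 difference of 0.45 (95% interval 0.021 to 0.89). Dhx58 (LGP2), which binds RNA and modulates the other cytosolic sensors, was at 7.35, 6.79 and 7.11 against 7.44, 7.28 and 7.52. It overlapped by the same array, CD37KO replicate 2, with a difference of 0.33 (95% interval 0.022 to 0.64), which was 0.18 without WT replicate 2. Ddx58 (RIG-I), the sensor of RNA with a triphosphate end, had a log2 difference of -0.065 (95% interval -0.25 to 0.12) and its highest array in WT.

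The 3 transcription factors had a class score difference of 0.072, and no member reached an unadjusted p under 0.05. The class score difference was 0.027 without WT replicate 2, 0.13 without CD37KO replicate 1 and 0.17 with the neutrophil score in the fit. Irf7, which drives transcription of the interferon genes in a second wave, was at 9.51, 9.45 and 9.50 in WT and at 9.44, 9.73 and 9.70 in CD37KO arrays. CD37KO replicate 1 was the lowest of all 6 arrays and the other two CD37KO arrays were the highest, with a log2 difference of 0.14 (95% interval -0.061 to 0.33). Irf9, the DNA-binding part of ISGF3, was at 9.32, 9.18 and 9.42 in WT and at 9.31, 9.42 and 9.38 in CD37KO arrays, which overlapped. Its log2 difference was 0.064 (95% interval -0.11 to 0.24), and that of Stat2, its partner in ISGF3, was 0.016 (95% interval -0.16 to 0.19). Irf7 lies on chromosome 7, as Cd37 does, with 996 measured genes from one to the other.

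Of the 16 antiviral effectors measured, 9 reached an unadjusted p under 0.05 with a higher level in CD37KO (against 2.96% of all genes) and 8 were higher without overlap (against 4.33%), and the class score differed by 0.23. The OAS proteins make the oligoadenylates that activate RNase L. Oas2 was at 8.13, 7.71 and 7.61 in WT and at 8.37, 8.38 and 8.51 in CD37KO arrays, with the WT arrays spread more widely than the CD37KO arrays. In log2 terms CD37KO exceeded WT by 0.61 (standard error 0.13, adjusted p = 0.639 from limma), a 1.52-fold higher level. Oas3 was at 6.18, 5.96 and 6.22 in WT and at 6.46, 6.58 and 6.29 in CD37KO arrays, a log2 difference of 0.33 (standard error 0.098) without overlap. Oasl2, an OAS-like protein, was at 7.50, 7.01 and 7.42 against 7.73, 7.98 and 7.72. WT replicate 2 was the lowest array by a wide margin, and the log2 difference was 0.50 (standard error 0.13). Eif2ak2 (PKR), the kinase that halts translation when it binds double-stranded RNA, was at 7.18, 6.98 and 6.85 in WT and at 7.25, 7.36 and 7.23 in CD37KO arrays. The groups lay close, 0.054 apart at their nearest arrays, with a log2 difference of 0.28 (standard error 0.091). With array weights, which gave WT replicate 1 the most weight, this difference was 0.15.

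Rsad2 (viperin), which makes a nucleotide that ends viral RNA chains, was at 6.85, 6.72 and 6.89 in WT and at 7.15, 7.23 and 7.48 in CD37KO arrays. Its nearest arrays were 0.26 apart, and CD37KO exceeded WT by a log2 value of 0.47 (standard error 0.094), with an adjusted p of 0.544 from limma. Cmpk2, a nucleotide kinase induced together with Rsad2, had a log2 difference of -0.038 (95% interval -0.28 to 0.20), with its highest array in WT. The IFIT proteins bind foreign RNA. Ifit1 was at 5.86, 5.82 and 6.05 in WT and at 6.13, 6.22 and 6.18 in CD37KO arrays, near background but without overlap, with a log2 difference of 0.26 (standard error 0.076). Ifit3 was well above background and differed by -0.040 (95% interval -0.30 to 0.22), whereas Ifit2 was above background in 1 array and differed by 0.024 (95% interval -0.30 to 0.34).

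Mx1 and Mx2 are dynamin-like GTPases, and Mx1 is disrupted in most inbred mouse strains. Mx1 was at 6.49, 6.41 and 6.27 in WT and at 6.48, 6.95 and 6.94 in CD37KO arrays. CD37KO replicate 1 lay among the WT arrays and the other two CD37KO arrays above them, with a log2 difference of 0.40 (95% interval 0.10 to 0.70). Mx2 was at 5.53, 5.67 and 5.63 against 5.79, 5.71 and 5.86, above background in 2 arrays, both CD37KO, with a log2 difference of 0.18. Rtp4, a chaperone of membrane receptors that is strongly induced by interferon, was at 7.32, 6.92 and 6.87 in WT and at 7.40, 7.17 and 7.60 in CD37KO arrays. Its groups overlapped through WT replicate 1 and CD37KO replicate 2, and the log2 difference was 0.36 (95% interval 0.030 to 0.68). Ifi35 was at 8.78, 8.59 and 8.75 in WT and at 8.83, 8.93 and 8.83 in CD37KO arrays. These groups did not overlap, yet the interval of the log2 difference of 0.16 reached from -0.0062 to 0.33. The remaining effectors all overlapped, with log2 differences of 0.16 for Xaf1, an antagonist of the apoptosis inhibitor XIAP (95% interval -0.066 to 0.39), 0.092 for Bst2 (tetherin), which holds budding virus at the cell surface (95% interval -0.052 to 0.24), and -0.058 for Samd9l, a restriction factor of poxviruses (95% interval -0.30 to 0.19).

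**Figure D3:**
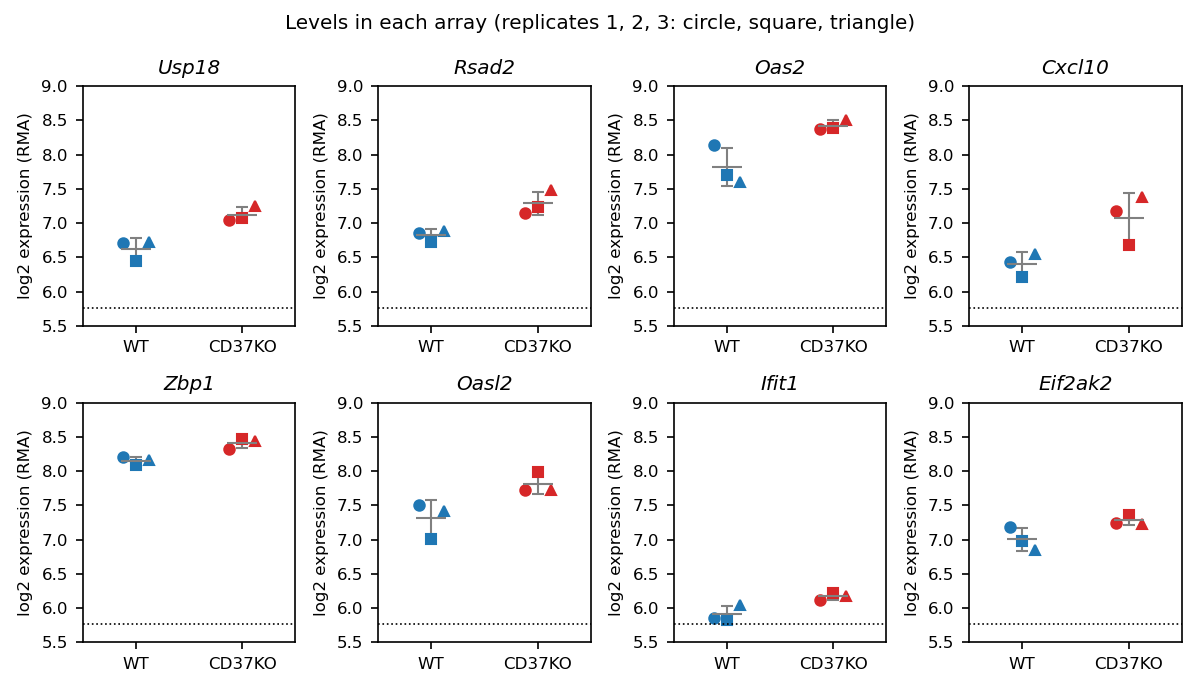
Log2 expression of 8 members in each array of WT (blue) and CD37KO (red) B cells, with grey marks for the mean and SD of 3 mice and a dotted line at the background level of 5.77. The 8 were picked from the 12 members without overlap, so in each panel all 3 CD37KO arrays lie above all 3 WT arrays. The widest margin (0.33) is that of Usp18.

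The enzymes of ISG15 conjugation and ADP-ribosylation differed little, with a class score difference of 0.096, no member at an unadjusted p under 0.05 and overlap in all 4 measured. Herc6, the ligase that attaches ISG15 to proteins in mice, was at 8.37, 8.26 and 8.44 in WT and at 8.55, 8.47 and 8.41 in CD37KO arrays. WT replicate 3 lay above CD37KO replicate 3, and the log2 difference was 0.12 (95% interval -0.049 to 0.28). Dtx3l, a ubiquitin ligase that pairs with Parp9, was at 8.60, 8.30 and 8.48 against 8.58, 8.37 and 8.75, with WT and CD37KO arrays intermixed and a log2 difference of 0.11 (95% interval -0.15 to 0.37). Parp9 differed by 0.063 (95% interval -0.12 to 0.25) and Parp14, an ADP-ribosyltransferase, by 0.096 (95% interval -0.062 to 0.25). The probe set shared by Isg15 and Gm9706 was at 5.20 to 5.54 in all arrays, below background, with a log2 difference of 0.073 that cannot be assigned to either gene.

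Of the 2 secreted proteins, Cxcl10 had the largest difference of the set. Cxcl10, a chemokine that attracts cells carrying CXCR3, was at 6.43, 6.21 and 6.55 in WT and at 7.17, 6.68 and 7.38 in CD37KO arrays. The groups did not overlap, although CD37KO replicate 2 lay only 0.13 above WT replicate 3, and CD37KO exceeded WT by a log2 value of 0.68 (standard error 0.17), with an adjusted p of 0.801 from limma. Lgals3bp, a glycoprotein that binds galectin-3, was at 9.44, 8.66 and 8.98 in WT and at 9.37, 8.999 and 9.51 in CD37KO arrays. WT replicate 1 was its second highest array, and the log2 difference was 0.27 (95% interval -0.19 to 0.72), or 0.082 to 0.47 when each array in turn was left out.

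All 4 feedback regulators had higher means in CD37KO, with a class score difference of 0.26. Usp18, which removes ISG15 from proteins and blocks signalling at IFNAR2, was at 6.71, 6.45 and 6.72 in WT and at 7.05, 7.07 and 7.26 in CD37KO arrays. Its nearest arrays were 0.33 apart, the widest gap of the set. CD37KO exceeded WT by a log2 value of 0.50 (standard error 0.094), with an adjusted p of 0.377 from limma, and by unadjusted p it ranked 20th among the genes that were higher in CD37KO. Oasl1, which holds back translation of Irf7, was at 8.20, 7.92 and 8.31 in WT and at 8.30, 8.73 and 8.55 in CD37KO arrays. WT replicate 3 lay 0.012 above CD37KO replicate 1, the only overlap, with a log2 difference of 0.38 (95% interval 0.083 to 0.68). Adar, which edits double-stranded RNA of the cell so that MDA5 does not sense it, was at 9.005, 8.90 and 9.008 in WT and at 9.012, 9.04 and 9.03 in CD37KO arrays. Its groups were separated by 0.00445, and the log2 difference was 0.056 (95% interval -0.082 to 0.20). Trim30a, a restraint on Toll-like receptor signalling, differed by 0.12 (95% interval -0.051 to 0.29) and lies on chromosome 7 with 496 measured genes from Cd37 to it.

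**Figure D4:**
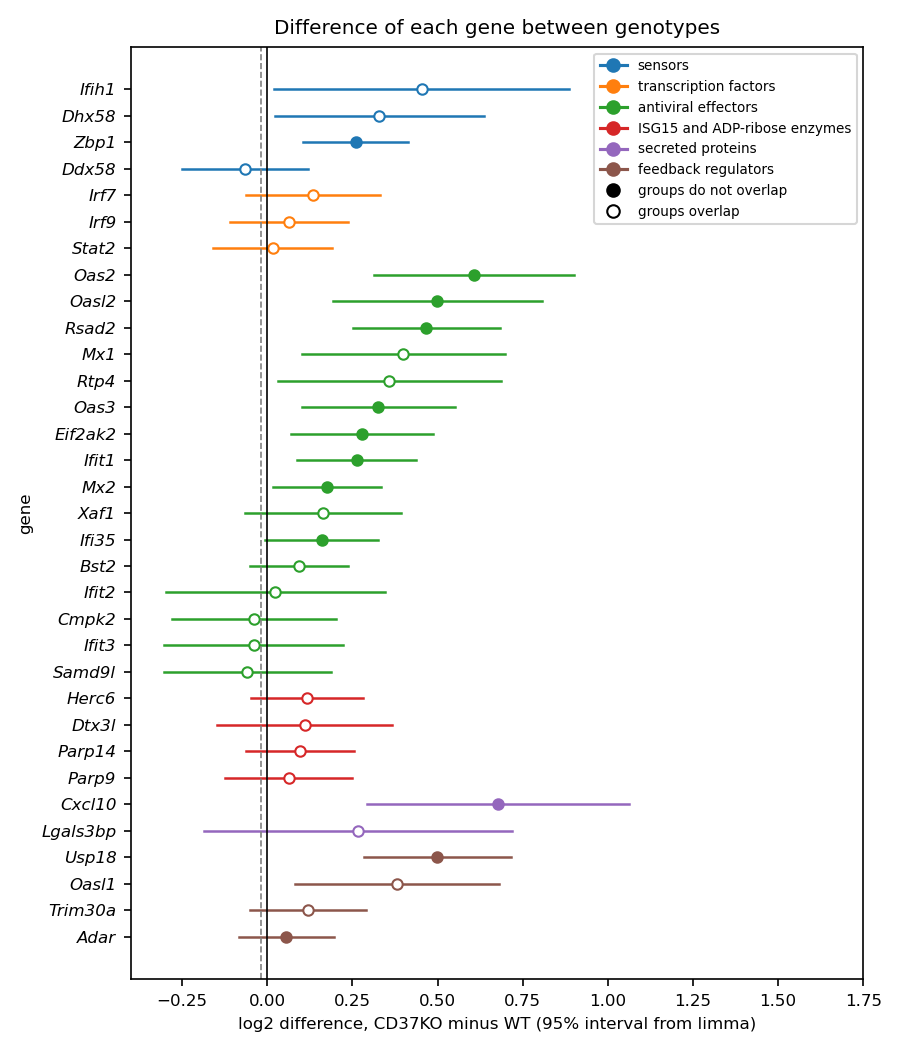
Log2 difference of each measured member, CD37KO minus WT, with its 95% interval from limma (horizontal axis), coloured by role, with filled points where the 3 WT and 3 CD37KO arrays do not overlap. The solid line marks 0 and the dashed line the median of all genes tested (-0.019). The intervals of 15 members lie above 0, and those of the transcription factors and of the ISG15 and ADP-ribose enzymes all include 0.

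The arrays also differed in markers of other cell types. Markers of macrophages and monocytes (16 measured, 14 of them above background in all arrays) scored 0.39, -0.40 and -0.29 in WT and 0.49, -0.68 and 0.50 in CD37KO arrays. WT replicate 1 and CD37KO replicates 1 and 3 were the 3 highest arrays for 14 of these 16 markers. The same 3 arrays were the highest for 5 members, Ifih1, Dhx58, Rtp4, Dtx3l and Lgals3bp (15.2% of the 33, against 6.16% of all genes). The 12 members without overlap cannot meet this rule, since their 3 highest arrays are the CD37KO arrays, and the count leaves them out. The macrophage score itself differed by 0.20 between genotypes, with 15 of the 16 markers higher in CD37KO on average and none without overlap. Within WT the module score had the same order of arrays as the macrophage score, and in CD37KO replicate 2, the lowest array in macrophage markers, the module score was 0.085. Markers of neutrophils (17 measured, 7 above background in all arrays) scored -0.59 to -0.38 in WT and -0.15 to 1.10 in CD37KO arrays. Of these markers 9 were higher without overlap (against 4.33% of all genes), and the median log2 difference was 0.73. The neutrophil score thus separated the genotypes as the module score did, and WT replicate 2 was the lowest array in both. Within CD37KO the orders differed, with replicate 1 at the highest neutrophil score, 1.10, and the lowest module score, 0.075. Markers of plasmacytoid dendritic cells, which make much interferon, had a median log2 difference of 0.041 over 8 measured, of which 5 were higher on average. Siglech was lower without overlap (log2 difference -0.28), and Ccr9, below background in all arrays, differed by -0.14. Tcf4 (-0.050), Ly6d (0.37), Irf8 (0.061) and Plac8 (0.16, without overlap) were at 9.97 or above in each array. How much of their signal came from the B cells was not tested. Pacsin1 differed by 0.17 and Cox6a2 by 0.022, both with overlap. With the macrophage score added to the fit, an alternative picked once the values had been seen, the module score differed by 0.20 and 14 members reached an unadjusted p under 0.05. With the neutrophil score in its place the module score differed by 0.21 and the count was 10, and the log2 difference of Cxcl10 was 0.30 and that of Ifih1 -0.022. Since the neutrophil score separated the genotypes, this fit cannot divide a difference between genotype and neutrophil content.

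**Figure D5:**
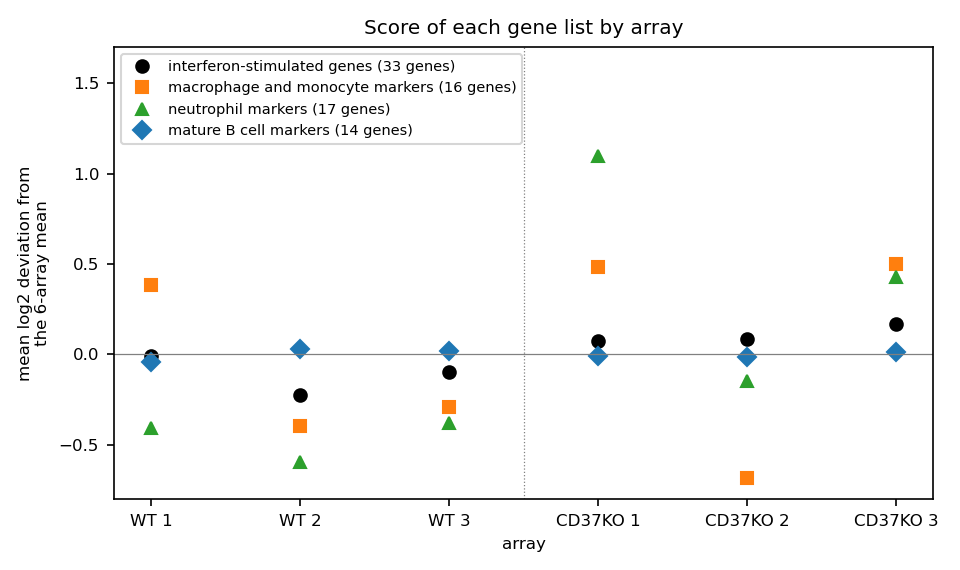
Mean log2 deviation from the 6-array mean (vertical axis) over the interferon-stimulated genes and 3 lists of cell type markers, for each array. The interferon-stimulated genes lie from -0.22 to -0.0093 in WT and from 0.075 to 0.17 in CD37KO arrays, and the mature B cell markers without Cd37 range by 0.076 over the 6 arrays.

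Steps upstream of these genes were read from 3 further lists. Of the interferon genes themselves (16 measured), 10 were below background in all arrays, 0 reached an unadjusted p under 0.05 with a higher and 2 with a lower level, and the median log2 difference was -0.049. The 2 were Ifne (log2 difference -0.28) and Ifna12 (-0.19), both below background in each array. Ifnb1 was also below background, at 4.98 to 5.31. Of the receptor and its JAK-STAT pathway (9 measured), 0 were higher and 0 lower at an unadjusted p under 0.05 (against 2.96% and 2.99%). Ifnar1 differed by 0.057 (95% interval -0.098 to 0.21) and Ifnar2 by 0.17 (95% interval -0.050 to 0.39). Of the genes that induce interferon (15 measured), 1 was higher and 1 lower at an unadjusted p under 0.05 (against 2.96% and 2.99% of all genes). Without overlap, 1 was higher and 1 lower (against 4.33% and 7.57%). The higher count by p was 0 to 2 when each array in turn was left out. Ikbke, a kinase that activates IRF3 and IRF7, was the higher one with all arrays, with a log2 difference of 0.17. Irf3, the factor that switches on Ifnb1, was at 8.61, 8.40 and 8.52 in WT and at 8.02, 8.03 and 7.92 in CD37KO arrays, a log2 difference of -0.52 without overlap (adjusted p = 0.117 from limma). Irf3 lies on chromosome 7 with 19 measured genes from Cd37 to it, and the part of this position in its difference was not tested.

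A further list of interferon-stimulated genes outside the 33 members was read in the same way. Of 39 measured, an unadjusted p under 0.05 was reached by 9 with a higher and 0 with a lower level (against 2.96% and 2.99% of all genes). The groups did not overlap in 9 with a higher and 1 with a lower level (against 4.33% and 7.57%), and the median log2 difference was 0.13, or 0.080 without CD37KO replicate 1. Ddx60, a helicase that aids RIG-I, was at 6.31, 6.30 and 6.01 in WT and at 6.62, 6.88 and 6.96 in CD37KO arrays, with a log2 difference of 0.61 (adjusted p = 0.362 from limma). Ifi27l2a, a small mitochondrial protein, was at 8.32, 7.88 and 8.31 against 8.50, 8.77 and 8.96, a log2 difference of 0.57. Neither overlapped between genotypes. Slfn5 differed by 0.58 and Psmb9, a subunit of the immunoproteasome, by 0.39, both without overlap. Genes that respond above all to IFN-γ (11 measured) had a median log2 difference of 0.25, or 0.15 without CD37KO replicate 3 and 0.16 without WT replicate 2, with 3 higher and 0 lower at an unadjusted p under 0.05 (against 2.96% and 2.99%). The count of 3 was 1 without WT replicate 2 and 6 without CD37KO replicate 2. The 3 were Nlrc5, which drives MHC class I genes, with a log2 difference of 0.37 (adjusted p = 0.357 from limma), Irf1 with 0.25 and Gbp3 with 0.20. No gene of these lists passed an adjusted p under 0.05.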

How the data were processed

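RNA of 6 mice was hybridised to 1 array each. The authors deposited their values on the log2 scale, after RMA and with the genome build mm8 per the labels' processing notes. RMA draws low signals together, so differences near background are understated. Of 35361 probe sets, the 21780 that name exactly 1 gene entered the analysis, and a gene with several kept its brightest. No filter on low values was applied, and all 33 measured members were tested.

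Genotypes were compared in limma 3.58.1 (R 4.3.3), with lmFit, eBayes and two-sided p-values adjusted by Benjamini-Hochberg over 19935 genes at a threshold of 0.05. With 3 arrays a group, the smallest p of an exact permutation test would be 0.10, and the number of arrays limits the precision. No test was run over the list of members. The fit was tested on simulated data.

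The members and all gene lists were chosen with earlier results of these data known. Array values are given for members with an unadjusted p under 0.05 or without overlap, for the 2 of largest difference or range in each class, and in the other lists for genes of smallest p. Ifnb1, Ifnar1 and Ifnar2 were named for their role, and the markers of plasmacytoid dendritic cells after their values were seen. The alternatives were another normalization, centring, the mean of probe sets, a background filter, other variance estimates, array weights, a replicate block and leaving out arrays.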

Additional observations from a re-analysis of the deposited data

How the results depend on the processing

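No member passed an adjusted p under 0.05 from limma in any alternative, and none was lower at an unadjusted p under 0.05. Dropping each array in turn gave 4 to 14 genes called among all, 9 to 15 members higher at an unadjusted p under 0.05, 0 to 2 such genes of interferon induction and 1 to 6 of the IFN-γ list. Over other scalings and filters 8 to 14 members were higher without overlap. Ordinary least squares called 3 genes of all and left 9 members, 4 further interferon-stimulated genes and 0 of induction higher. Array weights called 19 genes and gave the interferon genes a median log2 difference of -0.12. The replicate block called 4 genes, with 14 members, 14 further interferon-stimulated genes and 0 of induction higher. The labels do not say whether replicate numbers pair the mice. Deviations from the group means correlated by 0.24, 0.0068 and -0.14 between arrays of the same number, which cannot show whether mice were handled in pairs. Induction genes were also 0 after another quantile normalization, over genes above background and with a trended, robust eBayes. With the neutrophil score as a covariate, 2 genes were called in all, the class scores differed by 0.17 for transcription factors, 0.011 for ISG15 and ADP-ribose enzymes and 0.12 for secreted proteins, the medians were 0.027 for further interferon-stimulated genes and 0.11 for the IFN-γ list, and the higher counts were 1 interferon gene, 0 of induction, 4 further interferon-stimulated genes and 1 of the IFN-γ list. The module score kept its direction throughout, from 0.16 to 0.27, while 10 members changed sign in at least 1 alternative. The cause of these shifts was not tested, and the fit with the neutrophil score cannot divide a difference between that score and genotype. Genes near background, such as Ifit1, Ifit2 and Mx2, have only compressed differences.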
